A study of Mus musculus with 33 samples.

Results

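Collagen genes other than those of the classical cartilage collagens were followed through mouse tongue development and in sorted costal cells. A gene was included when its symbol had the form Col, a number, the letter a and a number. The 7 genes of collagens II, IX, X and XI (Col2a1, Col9a1, Col9a2, Col9a3, Col10a1, Col11a1 and Col11a2) were left out. This gave 36 of 43 collagen genes. The 3 tongue tables of 27825 genes each listed 34 of them, and the chondrocyte table of 25965 genes listed all 36, with the X-linked Col4a5 and Col4a6 in addition. The choice rested on names alone, and several genes that it kept, among them Col27a1 and the type VI genes, are also known from cartilage.

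The study asked which genes respond when the imprinted transcription factor gene Zac1 (Plagl1 in the tables) is expressed from both of its alleles instead of 1. Wild type mice (labelled Zac1MOI, or Zac1LMOI for the costal cells) were set against mice with biallelic Zac1 expression (labelled Zac1LOM), which carry the knockout named Zac1o. Whole tongues were taken at E13.5 (E for embryonic day), at birth (P0) and at P20 (P for postnatal day), with 3 biological replicates per genotype and stage. Costal chondrocytes came from E18.5 rib cages, digested and sorted as Cd24a+ Cd200+ cells, about 2000 per library, from 6 biallelic and 5 wild type animals. No tissue-restricted driver is named, so the biallelic state is that of the whole mouse, and nothing on litter, sex, strain background or dates is given in the sources used here. The labels name biological replicates without saying whether they came from different litters, so the p-values measure the spread between these samples.

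Collagens are extracellular proteins built from 3 chains wound into a triple helix. The fibrillar collagens (types I, III, V, XXIV and XXVII) form the tension-bearing fibrils of connective tissue, and fibril-associated collagens such as types XII and XIV sit on the surface of those fibrils. Type IV forms the sheet of basement membranes, type VI forms beaded filaments around muscle fibres and other cells, type VII anchors the epidermal basement membrane, and types XIII, XVII, XXIII and XXV span the cell membrane. In the tongue these proteins make up the sheaths around muscle fibres, the lamina propria, vessel walls and the base of the epithelium.

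Values are RPM, read counts scaled by sequencing depth, with no correction for gene length. Read totals were 36832717 to 92249098 in the tongues and 2938462 to 15689559 in the costal cells, so that a gene with no read could have been as high as 0.0325 to 0.0814 RPM and 0.191 to 1.02 RPM (3 reads, counting error only). Plagl1 stood higher in every biallelic library than in every wild type library of the same table. Its RPM in wild type and biallelic tongues were 66.1, 105 and 91.7 against 157, 177 and 275 at E13.5, 243, 229.7 and 221 against 490.0, 429.6 and 499 at P0, and 23.1, 25 and 30.5 against 77.1, 50.9 and 66.7 at P20. In the costal cells it was at 11.1, 6.21, 3.18, 8.88 and 15.3 RPM in the wild type animals and at a lowest, median and highest value of 17.5, 24.6 and 50 RPM in the biallelic animals. The log2 differences were 1.2 (SE 0.23, adjusted p = 0.992), 1.03 (SE 0.1, adjusted p = 0.0469), 1.3 (SE 0.18, adjusted p = 1) and 1.74 (SE 0.38, adjusted p = 0.423) in that order. The P0 difference alone passed 0.05, and it did not under every setting, as given at the end. Some libraries stood apart on the first principal component of their table: biallelic library 3 at E13.5, wild type library 2 and biallelic library 1 at P0, biallelic library 3 at P20, and wild type animals 7, 8 and 9 of the costal cells.

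The tongue libraries held markers of several tissues. The summed level of 6 skeletal muscle markers was 449.9 to 823 RPM in the E13.5 libraries, and P0 libraries held 26422 to 32198 RPM and P20 libraries 17079 to 28497 RPM. Over the same stages 6 fibroblast markers summed to 196 to 369, 224 to 268 and 239.8 to 351 RPM, 5 endothelial markers to 17.4 to 64.2, 128 to 142 and 147 to 288 RPM, and 5 epithelial markers to 432 to 771, 333 to 454 and 500.4 to 1006 RPM. The fibroblast sum held members that moved in opposite directions. From E13.5 over P0 to P20 the wild type mean of Fbln1 fell from 85.9 over 23.1 to 13.7 RPM. That of Dcn rose from 32.2 over 94.9 to 174 RPM. Pdgfra also fell at each step, Pdgfrb and Thy1 also rose at each step, and Lum rose and then fell. In whole tissue, fewer cells of a type and less RNA per cell cannot be told apart. The part of these shifts in the collagen results was not tested. RNA was extracted with an AllPrep kit at E13.5 and with TRIsure at P0 and P20, so kit and stage cannot be told apart between E13.5 and P0.

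The collagen genes together took 0.136 to 0.181% of all reads in E13.5 wild type tongues. In P0 tongues they took 0.497 to 0.528%, and in P20 tongues 0.277 to 0.379%. For the biallelic tongues the shares were 0.131 to 0.26%, 0.504 to 0.556% and 0.261 to 0.361%. At each stage the ranges of the 2 genotypes overlapped, and no E13.5 or P20 library reached the level of a P0 library. Col1a1, Col1a2 and Col3a1, the chains of types I and III, made up 36.3 to 44.4% of the collagen reads in E13.5 wild type tongues, 42.8 to 45.4% in those of P0 and 49.8 to 55.3% in those of P20.

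Per kilobase of exonic length, Col3a1 was the most abundant collagen at each stage, at 32.8 ± 9.29, 136 ± 2.56 and 99.4 ± 16.6 RPM per kb (SD, n = 3 wild type tongues). Col1a2 came next at E13.5 at 20.5 ± 3.64 RPM per kb, followed by Col4a1 at 15.5 ± 0.892 and Col18a1 at 13.8 ± 1.94. At P0 the next in order were Col1a1 at 62 ± 9.49, Col4a1 at 58.4 ± 5.02 and Col6a1 at 51.6 ± 3.34 RPM per kb, and Col1a1 and Col4a1 did not differ beyond their SD. By P20 Col1a1 at 61.5 ± 16.8 was followed by Col1a2 at 30.3 ± 7.17, Col17a1 at 30.1 ± 3.34 and Col4a1 at 28.3 ± 4.25 RPM per kb, and these last 3 did not differ beyond their SD. Col18a1 had moved from the fourth place at E13.5 to place 14 at P20, and Col17a1 from place 8 to the fourth. At E13.5 these 2 genes, at 13.8 ± 1.94 and 11.1 ± 3.38 RPM per kb, did not differ beyond their SD. The length is the union of all annotated exons of a gene, so the order within a stage depends on the annotation. At P0 Col1a2 was in place 2 by RPM, at 521 RPM, and in place 5 per kb.

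At the other end of the scale, Col6a4 and Col6a5, additional type VI chains, stayed below 1 RPM in each of the 18 tongue libraries, and Col4a4 reached 1 RPM in the P20 libraries alone. These 3 genes did not enter the comparison of stages, which tested 31 of the 34 collagen genes among 12831 genes with a mean of at least 1 RPM over all tongues. Col4a3 passed that filter through its P20 level and so had to differ at P20. Col28a1 was below 1 RPM in every E13.5 library and passed through its P0 and P20 levels.

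From E13.5 to P0 most collagen genes rose. Changes between stages and genotypes are given as log2 fold changes. In wild type tongues 25 of the 31 tested genes were higher at P0 and 2 were lower (limma, adjusted p under 0.05 over all genes tested), beside 37.4% of all genes higher and 40.8% lower. Their median log2 change was 1.83, beside -0.07 for all genes. In biallelic tongues 27 were higher and 2 were lower, beside 39.4% and 38.3% of all genes, with a median of 1.57 beside 0.02. Both counts of higher genes include Col28a1, whose call is not a test because the filter let it in through its later levels. All 27 genes called in the wild type were called with the same sign in the biallelic tongues, where they were 27 of 29 called genes. Of all 12831 genes, 10036 were called in wild type and 9962 in biallelic tongues. How many of all genes were called with the same sign in both was not counted, so this overlap is not read as particular to collagens. The other 2 were Col7a1 and Col25a1, and for neither was a difference between the genotypes called.

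From P0 to P20 the direction was mostly the opposite, a comparison that shares the P0 libraries with the one before. In wild type tongues 19 collagen genes were lower at P20 and 2 (Col17a1 and Col4a3) were higher, beside 14.7% of all genes lower and 32.2% higher. The call of Col4a3 was fixed by the filter, here and in biallelic tongues. The median change was -0.99 for the collagens and 0.21 for all genes. In biallelic tongues 20 were lower and 1 (Col4a3) was higher, beside 17.3% and 30.3% of all genes, with medians of -1.02 and 0.17. Centring each library on its median gene brought the median of all genes to 0.00 in wild type tongues and the share of higher genes among the called ones from 68.6% to 47.5%, and 20 collagen genes were then lower.

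**Figure D1:**
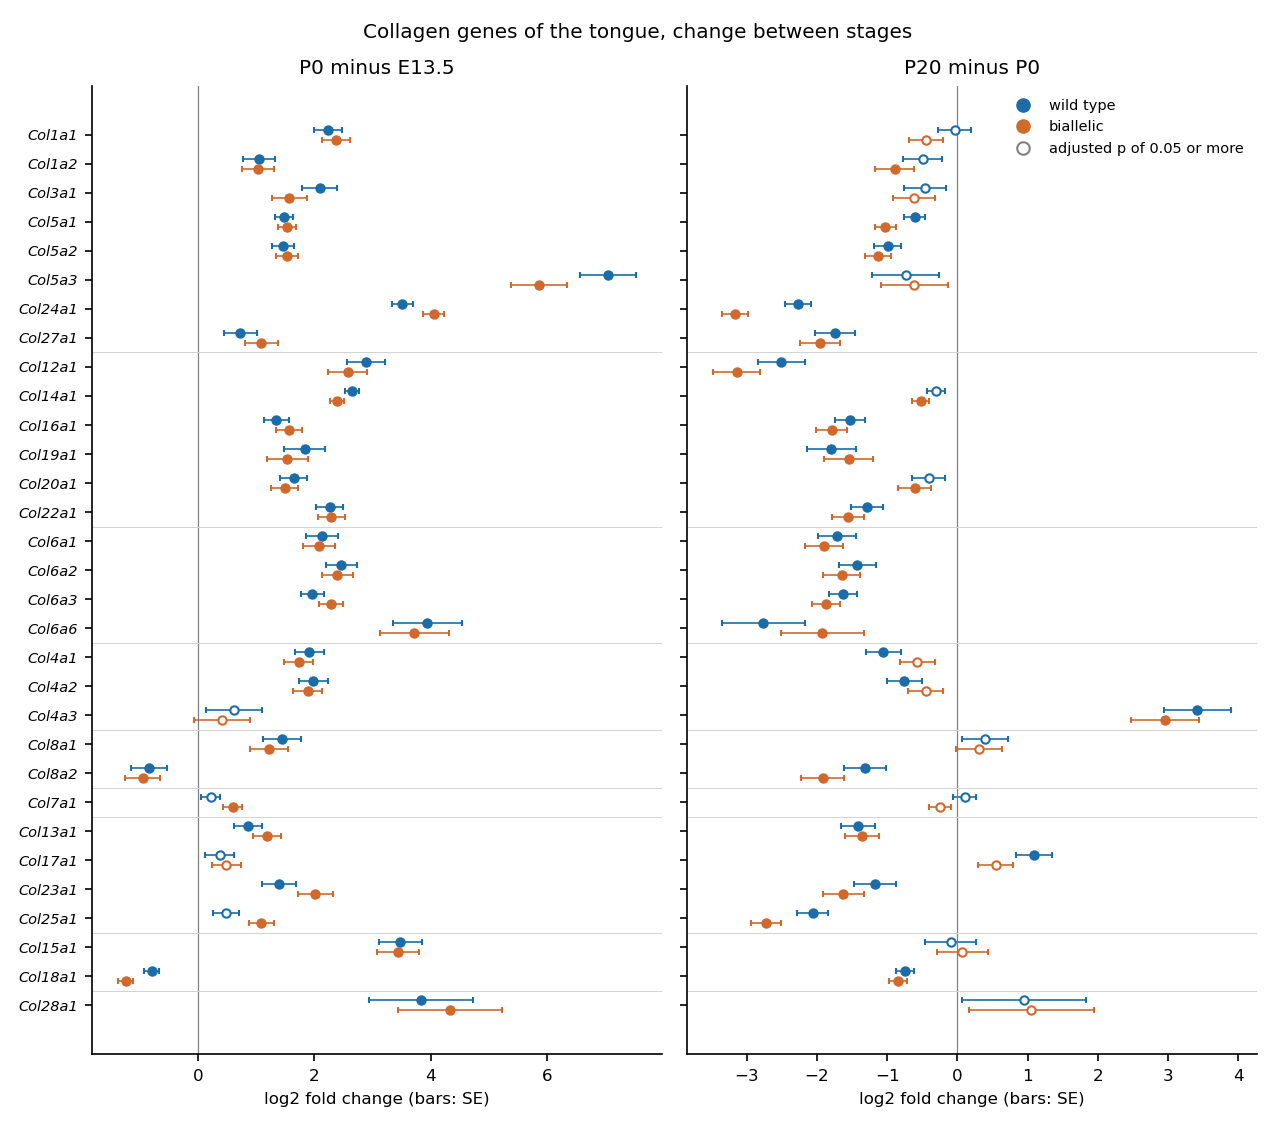
Log2 fold change of each tested collagen gene between stages (horizontal axis), from E13.5 to P0 on the left and from P0 to P20 on the right, in wild type and biallelic tongues; genes are ordered by class, bars are standard errors, filled points passed an adjusted p of 0.05, open points did not, and the vertical line marks no change. In the left panel nearly all points lie right of the line, with Col5a3 the farthest at 7.05 and 5.86, and in the right panel most lie left of it.

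Among the fibrillar collagens all 8 tested genes were higher at P0 than at E13.5 in both genotypes. Of all genes 37.4% were higher in wild type and 39.4% in biallelic tongues. The median log2 change of the 8 was 1.79 in wild type tongues. From P0 to P20 4 of 8 were lower in wild type and 5 of 8 in biallelic tongues, beside 14.7% and 17.3% of all genes. None was higher, beside 32.2% and 30.3% of all genes. Col5a3, a minor chain of type V collagen, had the largest rise of all collagens. Wild type Col5a3 stood at 0.13, 1.11 and 0.465 RPM at E13.5, 56.9, 54.7 and 49.3 RPM at P0 and 30.2, 34.2 and 32.1 RPM at P20. Biallelic Col5a3 stood at 0.647, 0.815 and 1.29 RPM at E13.5, 52.1, 52.4 and 48.9 RPM at P0 and 35.2, 30.1 and 35.3 RPM at P20. The E13.5 libraries were close to no expression and every later library was above them, with log2 changes to P0 of 7.05 (SE 0.48, adjusted p = 1.16e-09) in wild type and 5.86 (SE 0.48, adjusted p = 1.01e-08) in biallelic tongues. The decrease to P20 did not pass the test in wild type tongues, at -0.74 (SE 0.48, adjusted p = 0.218).

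Col24a1, a fibrillar collagen linked to developing bone and type I fibrils, was high at P0 alone. Wild type Col24a1 stood at 3.68, 6.5 and 4.97 RPM at E13.5, 49, 59.1 and 60.6 RPM at P0 and 12.1, 14 and 9.19 RPM at P20. Biallelic Col24a1 stood at 4.32, 4.21 and 5.41 RPM at E13.5, 76.7, 80.3 and 72 RPM at P0 and 7.94, 8.48 and 9.02 RPM at P20. No library of one stage overlapped with another stage. Its log2 rise to P0 was 3.51 (SE 0.18, adjusted p = 6.31e-11) in wild type and 4.05 (SE 0.18, adjusted p = 1.46e-11) in biallelic tongues, and the later changes were -2.27 (SE 0.18, adjusted p = 1.64e-07) and -3.17 (SE 0.18, adjusted p = 3.99e-09). Col27a1, which forms thin fibrils, moved less clearly from E13.5 to P0. Wild type Col27a1 stood at 12.1, 21.4 and 22.5 RPM at E13.5, 33, 19.1 and 42 RPM at P0 and 8.5, 9.79 and 8.49 RPM at P20. Biallelic Col27a1 stood at 16, 17.8 and 11.7 RPM at E13.5, 26.5, 35.4 and 33.9 RPM at P0 and 7.11, 6.75 and 11.2 RPM at P20. At P0 wild type library 2, one of the libraries that stood apart, lay within the E13.5 range. The rise was 0.73 (SE 0.28, adjusted p = 0.0269) in wild type tongues, and the decrease to P20, without overlap, was -1.74 (SE 0.28, adjusted p = 1.38e-04).

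The type I and III chains, the bulk of the fibrils, rose to P0, and from P0 to P20 none of the 3 passed the test in wild type tongues. Wild type Col3a1 stood at 222, 401 and 342 RPM at E13.5, 1362, 1328 and 1313 RPM at P0 and 976, 1138 and 813 RPM at P20. Biallelic Col3a1 stood at 265, 368 and 798 RPM at E13.5, 1289, 1232 and 1288 RPM at P0 and 818, 732 and 953 RPM at P20. All P0 libraries were above all other libraries, with biallelic library 3 the highest of the E13.5 libraries. The rise was 2.1 (SE 0.3, adjusted p = 7.44e-06) in wild type tongues, and the change to P20 was -0.47 (SE 0.3, adjusted p = 0.214). In E13.5 biallelic library 3 the fibroblast markers summed to 369 RPM, beside 196 to 258 RPM in the other 5 libraries, and the part of this in its collagen levels was not tested.

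Wild type Col1a1 stood at 66.6, 107 and 89.3 RPM at E13.5, 442, 444 and 335 RPM at P0 and 433, 496 and 281 RPM at P20. Biallelic Col1a1 stood at 69.5, 79.8 and 96.2 RPM at E13.5, 553, 318 and 420.1 RPM at P0 and 302, 274 and 352 RPM at P20. The E13.5 values lay below all others, and the P0 and P20 values overlapped. Its changes were 2.23 (SE 0.24, adjusted p = 2.16e-07) to P0 and -0.04 (SE 0.24, adjusted p = 0.9) to P20 in wild type tongues. Its partner chain Col1a2 rose by less. Wild type Col1a2 stood at 206, 296 and 261 RPM at E13.5, 522, 562 and 479 RPM at P0 and 387, 460.0 and 283 RPM at P20. Biallelic Col1a2 stood at 169, 211 and 451 RPM at E13.5, 572, 469 and 510.2 RPM at P0 and 245, 259.5 and 336 RPM at P20. The rise was 1.05 (SE 0.28, adjusted p = 0.00245) in wild type tongues. The change to P20 passed the test in biallelic tongues at -0.89 (SE 0.28, adjusted p = 0.0143) and not in wild type tongues at -0.49 (SE 0.28, adjusted p = 0.153), and the difference between these changes was not called.

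Col5a1 and Col5a2, the main type V chains that start fibril growth, both rose to P0 and fell to P20. Wild type Col5a1 stood at 97.9, 125 and 111 RPM at E13.5, 313, 323 and 292 RPM at P0 and 197, 241 and 176 RPM at P20. Biallelic Col5a1 stood at 104, 129.5 and 150.4 RPM at E13.5, 416, 324 and 363 RPM at P0 and 167, 168 and 207 RPM at P20. The stages did not overlap, and the changes were 1.48 (SE 0.16, adjusted p = 1.98e-07) and then -0.61 (SE 0.16, adjusted p = 0.00447) in wild type tongues. Wild type Col5a2 was at 76.1, 76.6 and 77.5 RPM at E13.5, at 214, 208 and 213 RPM at P0 and at 101, 119 and 99.4 RPM at P20. It changed by 1.46 (SE 0.19, adjusted p = 2.23e-06) and -0.99 (SE 0.19, adjusted p = 5.06e-04). Col3a1 (chromosome 1, 45311538 to 45349706, plus strand, GRCm38) and Col5a2 (chromosome 1, 45374321 to 45503282, minus strand) are neighbours facing each other on the same chromosome.

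**Figure D2:**
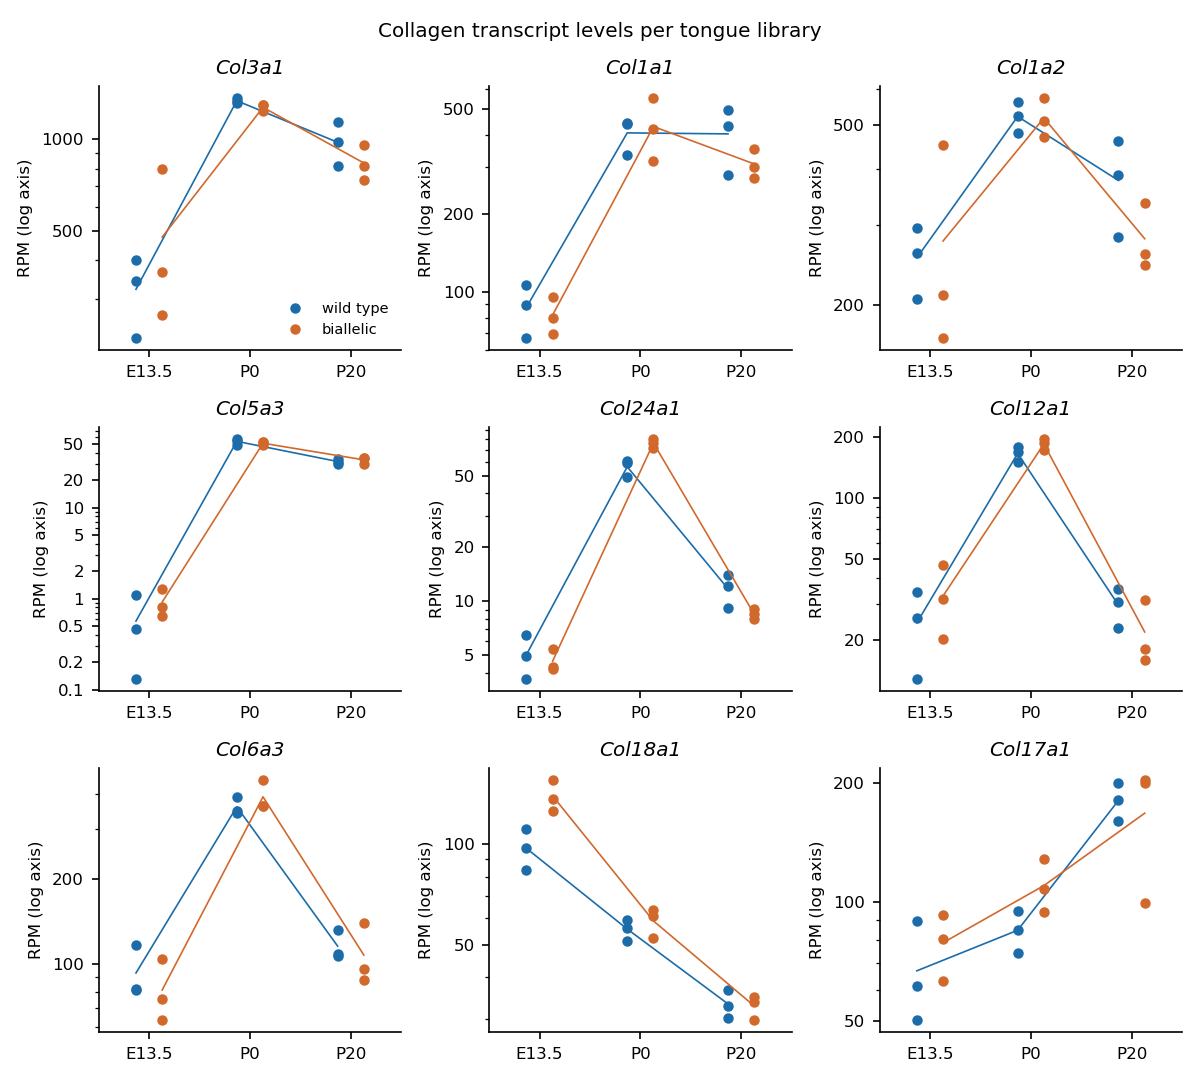
RPM of 9 collagen genes in each tongue library (logarithmic vertical axes with their own range) at E13.5, P0 and P20; each point is 1 library, blue for wild type and orange for biallelic, and lines join the group means. Col3a1, Col5a3, Col24a1, Col12a1 and Col6a3 are highest at P0, Col18a1 falls from stage to stage, and Col17a1 is highest at P20 except in biallelic library 3.

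Bases just upstream of the transcription start are shown for 4 of the 5 genes with the largest wild type rises to P0 (Col5a3, Col28a1, Col24a1 and Col15a1) and for the most abundant gene (Col3a1), to set the starts of genes that rose together side by side. The other of these 5, Col6a6, is not shown because its window overlaps an annotated exon. RefSeq promoters of GRCm38.p6 were found for 30 of the 36 genes, 32 promoters in all. Each line gives the last 100 bases before the start, 5′ to 3′ on the gene's strand, and capitals mark the motif GGGCGG on either strand, a GC box.
Col5a3: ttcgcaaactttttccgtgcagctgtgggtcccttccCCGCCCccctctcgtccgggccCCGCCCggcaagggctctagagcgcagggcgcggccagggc
Col24a1: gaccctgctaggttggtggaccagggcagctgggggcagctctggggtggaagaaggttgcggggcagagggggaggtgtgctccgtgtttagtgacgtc
Col15a1: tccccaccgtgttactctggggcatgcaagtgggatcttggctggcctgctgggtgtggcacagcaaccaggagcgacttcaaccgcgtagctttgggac
Col28a1: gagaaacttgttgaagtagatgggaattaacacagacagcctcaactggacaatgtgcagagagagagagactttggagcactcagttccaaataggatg
Col3a1: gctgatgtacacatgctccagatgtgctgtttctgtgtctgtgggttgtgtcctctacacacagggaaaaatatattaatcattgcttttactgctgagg
The positions are chr9:20815068-20815167, minus strand, for Col5a3, chr3:145292372-145292471, plus strand, for Col24a1, chr4:47207912-47208011, plus strand, for Col15a1, chr6:8192618-8192717, minus strand, for Col28a1, and chr1:45311438-45311537, plus strand, for Col3a1. None of these windows overlaps an annotated exon, and Col5a3 alone among the 5 holds GGGCGG in its 100 bases. In the 250 bases before the start, on both strands, GGGCGG was found in 19 of the 32 collagen promoters beside 32.7% of 32851 promoters, CCAAT in 11 beside 33.8%, and TATAAA in 3 beside 12.4%. None of the 3 motifs contains another, and a match is a description of the sequence.

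The fibril-associated collagens, which coat fibrils and link them to other matrix, were higher at P0 for 6 of 6 genes in both genotypes. Of all genes 37.4% were higher in wild type and 39.4% in biallelic tongues. The median log2 change of the 6 was 2.05 in wild type tongues. At P20 4 of 6 were lower than at P0 in wild type and 6 of 6 in biallelic tongues, beside 14.7% and 17.3% of all genes. Wild type Col12a1 stood at 12.7, 34.2 and 25.7 RPM at E13.5, 168, 149.9 and 179 RPM at P0 and 30.5, 35.4 and 22.7 RPM at P20. Biallelic Col12a1 stood at 20.1, 46.5 and 31.8 RPM at E13.5, 172, 195 and 185 RPM at P0 and 15.9, 18 and 31.5 RPM at P20. The P0 libraries were far above those of both other stages, which overlapped with each other. The changes were 2.89 (SE 0.33, adjusted p = 6.32e-07) and -2.51 (SE 0.33, adjusted p = 2.32e-05) in wild type and 2.57 (SE 0.33, adjusted p = 2.51e-06) and -3.14 (SE 0.33, adjusted p = 2.13e-06) in biallelic tongues.

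Col14a1, its close relative on mature fibrils, rose to P0 and differed less between P0 and P20 than Col12a1 did in its fitted change. Wild type Col14a1 stood at 12.6, 14.2 and 12.5 RPM at E13.5, 90.9, 71.6 and 84.1 RPM at P0 and 61.4, 70.5 and 67.4 RPM at P20. Biallelic Col14a1 stood at 14.2, 16.8 and 12.1 RPM at E13.5, 71.8, 73.1 and 78.6 RPM at P0 and 52.8, 46.7 and 56.2 RPM at P20. Its rise was 2.65 (SE 0.12, adjusted p = 1.83e-11) in wild type tongues. The decrease to P20 was -0.3 (SE 0.12, adjusted p = 0.0554) in wild type, just short of the threshold, and -0.52 (SE 0.12, adjusted p = 0.00264) in biallelic tongues.

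Col22a1, found at the junctions of muscle and tendon, was also highest at P0. Wild type Col22a1 stood at 3.6, 7.25 and 4.78 RPM at E13.5, 23.6, 20.7 and 28.2 RPM at P0 and 10.5, 9.48 and 9.39 RPM at P20. Biallelic Col22a1 stood at 3.97, 7.09 and 5.85 RPM at E13.5, 22.7, 28 and 30.4 RPM at P0 and 9.4, 8.36 and 9.57 RPM at P20. No stage overlapped with another, and the wild type changes were 2.26 (SE 0.23, adjusted p = 1.26e-07) and -1.29 (SE 0.23, adjusted p = 2.81e-04). Col16a1, a fibril-associated collagen of the skin and other connective tissue, also rose to P0 and fell to P20. Wild type Col16a1 stood at 10.5, 17.9 and 17.3 RPM at E13.5, 38.6, 34.8 and 40.1 RPM at P0 and 13.9, 14.5 and 11.2 RPM at P20. Biallelic Col16a1 stood at 9.91, 16.2 and 14.1 RPM at E13.5, 38.4, 38.3 and 40.1 RPM at P0 and 8.88, 10.6 and 15 RPM at P20. The wild type changes were 1.35 (SE 0.22, adjusted p = 2.92e-05) and -1.53 (SE 0.22, adjusted p = 4.58e-05). The P0 values were above all others, and E13.5 and P20 values overlapped. Wild type Col19a1 stood at 3.21, 1.6 and 1.31 RPM at E13.5, 6.12, 8.62 and 5.79 RPM at P0 and 2.29, 2.28 and 1.39 RPM at P20. Biallelic Col19a1 stood at 2.82, 2.09 and 3 RPM at E13.5, 8.63, 7.77 and 6.38 RPM at P0 and 1.59, 2.65 and 4.06 RPM at P20. The low-level Col19a1 and Col20a1 rose from 2.04 ± 1.02 RPM and 4.1 ± 1.47 RPM to 6.84 ± 1.55 RPM and 12.4 ± 1.49 RPM (SD, n = 3 wild type tongues), by 1.83 (SE 0.35, adjusted p = 1.48e-04) and 1.64 (SE 0.23, adjusted p = 7.18e-06).

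All 4 tested type VI genes rose to P0 and fell to P20 in both genotypes, with wild type medians of 2.30 and -1.67. Of all genes 37.4% rose to P0 and 14.7% fell to P20 in wild type tongues, and 39.4% and 17.3% in biallelic tongues. The triple helix of type VI combines the chains of Col6a1 and Col6a2 with that of Col6a3 or a relative such as Col6a6. Wild type Col6a3 stood at 81, 117 and 81.8 RPM at E13.5, 341, 388 and 348 RPM at P0 and 109, 133 and 107 RPM at P20. Biallelic Col6a3 stood at 63.5, 75.6 and 105 RPM at E13.5, 446, 361 and 362 RPM at P0 and 96, 88.2 and 139.6 RPM at P20. All P0 libraries were higher than all others, with changes of 1.96 (SE 0.2, adjusted p = 1.36e-07) and -1.64 (SE 0.2, adjusted p = 9.96e-06) in wild type tongues.

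Wild type Col6a1 stood at 38.6, 79.5 and 44.1 RPM at E13.5, 214, 242 and 222 RPM at P0 and 68.9, 78.2 and 61.2 RPM at P20. Biallelic Col6a1 stood at 35.7, 58.8 and 80.7 RPM at E13.5, 226, 247 and 229.9 RPM at P0 and 53.5, 54.6 and 84.6 RPM at P20. Its wild type changes were 2.14 (SE 0.27, adjusted p = 1.90e-06) and -1.71 (SE 0.27, adjusted p = 1.15e-04), and E13.5 and P20 overlapped. Wild type Col6a2 stood at 27.2, 47.4 and 26 RPM at E13.5, 175, 196 and 165 RPM at P0 and 67.2, 80.4 and 54.3 RPM at P20. Biallelic Col6a2 stood at 23.2, 36.1 and 52.4 RPM at E13.5, 198, 182 and 178 RPM at P0 and 50.8, 53 and 77.4 RPM at P20. The P0 values were again above all others, with wild type changes of 2.47 (SE 0.26, adjusted p = 2.43e-07) and -1.42 (SE 0.26, adjusted p = 4.10e-04). Both genes lie on the minus strand of chromosome 10, Col6a2 at 76595762 to 76623630 and Col6a1 at 76708792 to 76726168.

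Col6a6 was the least abundant of the 4. Wild type Col6a6 stood at 0.311, 3.28 and 2.26 RPM at E13.5, 20.1, 21.2 and 19.4 RPM at P0 and 3.29, 3.78 and 2.12 RPM at P20. Biallelic Col6a6 stood at 1.27, 1.38 and 0.999 RPM at E13.5, 14, 16.1 and 17.6 RPM at P0 and 4.2, 2.51 and 6.87 RPM at P20. The wild type P0 values exceeded all others, and the E13.5 and P20 values overlapped. Its wild type changes were 3.94 (SE 0.59, adjusted p = 1.29e-05) and -2.76 (SE 0.59, adjusted p = 0.00129). The decrease in biallelic tongues was -1.93 (SE 0.59, adjusted p = 0.0138), and without P20 biallelic library 2 it no longer passed the test, at -1.56 (adjusted p = 0.0672).

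Of the type IV basement membrane genes, the ubiquitous chains Col4a1 and Col4a2 rose to P0 in both genotypes. Wild type Col4a1 stood at 117, 122 and 109 RPM at E13.5, 413, 479 and 415 RPM at P0 and 206, 245 and 182 RPM at P20. Biallelic Col4a1 stood at 96.5, 124 and 187 RPM at E13.5, 445, 443 and 414 RPM at P0 and 257, 209 and 466 RPM at P20. In wild type tongues the stages did not overlap. Biallelic library 3 of P20 was above all 3 biallelic P0 libraries and below the highest wild type one, and biallelic library 3 of E13.5 was just above the lowest wild type P20 library. The changes in wild type tongues were 1.91 (SE 0.25, adjusted p = 2.23e-06) and -1.05 (SE 0.25, adjusted p = 0.00245), and the P20 change in biallelic tongues, -0.57 (SE 0.25, adjusted p = 0.0669), did not pass the test. Wild type Col4a2 was at 58.9 to 67.3 RPM at E13.5, 228 to 289 RPM at P0 and 133 to 174 RPM at P20, with changes of 1.98 (SE 0.25, adjusted p = 1.63e-06) and -0.76 (SE 0.25, adjusted p = 0.0201). The 2 genes start head to head on chromosome 8, Col4a1 on the minus strand up to 11312826 and Col4a2 on the plus strand from 11312805, so the annotated genes overlap at their starts.

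Col4a3 and Col4a4, the chains of the specialised basement membranes of kidney and other organs, also start head to head, on chromosome 1. Wild type Col4a3 stood at 0.233, 0.305 and 0.106 RPM at E13.5, 0.243, 0.325 and 0.347 RPM at P0 and 3.38, 3.86 and 2.58 RPM at P20. Wild type Col4a4 stood at 0.0518, 0.191 and 0.106 RPM at E13.5, 0.211, 0.523 and 0.238 RPM at P0 and 1.94, 2.39 and 1.52 RPM at P20. All P20 libraries exceeded those of the earlier stages for both genes, at low levels. The fitted change of Col4a3 was 3.42 (SE 0.48) in wild type and 2.96 (SE 0.48) in biallelic tongues. Since Col4a3 entered the fit through its P20 level, these values are a description and not a test.

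The 2 multiplexins, basement membrane collagens that carry sugar chains, moved in opposite directions from E13.5 to P0. Wild type Col15a1 stood at 5.41, 6.6 and 9.81 RPM at E13.5, 85.7, 75 and 75.4 RPM at P0 and 73.1, 88.3 and 61.4 RPM at P20. Biallelic Col15a1 stood at 4.09, 5.81 and 12.3 RPM at E13.5, 68.5, 73.2 and 73.5 RPM at P0 and 60.9, 49.7 and 141 RPM at P20. Its rise was 3.48 (SE 0.36, adjusted p = 1.97e-07), and the P0 and P20 values overlapped, with P20 biallelic library 3 the highest of all. Col18a1, whose end fragment is endostatin, fell at each step. Wild type Col18a1 stood at 111, 83.5 and 97.3 RPM at E13.5, 56.2, 51.4 and 59.5 RPM at P0 and 30.2, 36.7 and 32.8 RPM at P20. Biallelic Col18a1 stood at 126, 137 and 156 RPM at E13.5, 52.4, 60.9 and 63.4 RPM at P0 and 35, 29.7 and 33.7 RPM at P20. No stage overlapped with another within or across genotypes. The changes were -0.8 (SE 0.12, adjusted p = 1.87e-05) and -0.75 (SE 0.12, adjusted p = 1.67e-04) in wild type and -1.24 (SE 0.12, adjusted p = 1.10e-07) and -0.84 (SE 0.12, adjusted p = 5.06e-05) in biallelic tongues.

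Col8a1 and Col8a2, the short chains of the type VIII network of vessels and the cornea, also separated. Wild type Col8a2 stood at 12.9, 16.2 and 17.1 RPM at E13.5, 10.2, 6.84 and 8.88 RPM at P0 and 4.01, 3.9 and 2.56 RPM at P20. Biallelic Col8a2 stood at 12.8, 20.2 and 27 RPM at E13.5, 9.16, 9.74 and 10.8 RPM at P0 and 1.59, 2.76 and 4.06 RPM at P20. No library of one stage overlapped with the same genotype's next stage. The wild type changes were -0.84 (SE 0.3, adjusted p = 0.0187) and -1.32 (SE 0.3, adjusted p = 0.00227). The first of these missed the threshold under median centring (adjusted p = 0.0519), quantile normalization (0.0615) and scaling to the reads of the listed genes (0.0564), without E13.5 wild type library 3 (0.0607) and without P0 wild type library 2 (0.08). In biallelic tongues it was -0.95 (SE 0.3, adjusted p = 0.00931), and missed the threshold without E13.5 biallelic library 3 (adjusted p = 0.0574). Wild type Col8a1 was at 10, 9.58 and 9.26 RPM at E13.5, 31.7, 17.5 and 32.2 RPM at P0 and 41.9, 41.7 and 23.3 RPM at P20, with a rise of 1.44 (SE 0.33, adjusted p = 7.60e-04) to P0.

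Among the transmembrane collagens Col17a1, the hemidesmosome collagen of basal keratinocytes, went against the rest at P20. Wild type Col17a1 stood at 89.5, 50.1 and 61.2 RPM at E13.5, 85, 74.3 and 95.2 RPM at P0 and 182, 160.4 and 201 RPM at P20. Biallelic Col17a1 stood at 80.5, 92.9 and 63.2 RPM at E13.5, 94.3, 108 and 128 RPM at P0 and 204, 201 and 99.2 RPM at P20. Its change to P20 was 1.09 (SE 0.25, adjusted p = 0.00222) in wild type tongues, where all P20 libraries exceeded all earlier ones. In biallelic tongues the change was 0.55 (SE 0.25, adjusted p = 0.0846), where library 3 was at 99.2 RPM beside 201 and 204 RPM in the other 2. That library also held the lowest sum of the 5 epithelial markers, 500 RPM beside 707 to 1006 RPM in the other P20 libraries, and the part of this in the Col17a1 level was not tested.

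Col25a1, a membrane collagen needed for motor nerves to reach muscle, was high at E13.5 and P0. Wild type Col25a1 stood at 29.3, 36.3 and 36.4 RPM at E13.5, 41.7, 45.8 and 55.4 RPM at P0 and 10.7, 12.2 and 11.2 RPM at P20. Biallelic Col25a1 stood at 22.5, 27.6 and 46.9 RPM at E13.5, 53.8, 71 and 73.2 RPM at P0 and 9.21, 12.3 and 8.52 RPM at P20. The P20 values were below all earlier ones, with changes of -2.06 (SE 0.22, adjusted p = 2.34e-06) and -2.73 (SE 0.22, adjusted p = 1.14e-07) in wild type and biallelic tongues. Col13a1, a collagen of the neuromuscular junction, was at 4.25 to 6.79, 9.04 to 10.9 and 2.99 to 4.25 RPM over the 3 stages in wild type tongues, and Col23a1 at 17.3 to 23.3, 47.8 to 61.1 and 23.3 to 25.9 RPM. Both rose to P0, by 0.86 (SE 0.24, adjusted p = 0.00387) and 1.4 (SE 0.3, adjusted p = 4.09e-04), and fell to P20.

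Col7a1, the anchoring fibril collagen beneath the epithelium, passed the test at neither step in wild type tongues. Wild type Col7a1 stood at 25.7, 23.9 and 24.5 RPM at E13.5, 29.8, 25.7 and 31.1 RPM at P0 and 31, 28.8 and 33.4 RPM at P20. Its wild type changes were 0.22 (SE 0.16, adjusted p = 0.22) and 0.11 (SE 0.16, adjusted p = 0.613), and in biallelic tongues it rose to P0 by 0.6 (SE 0.16, adjusted p = 0.00301). Col28a1, a collagen of peripheral nerve, rose to P0 from low levels. Wild type Col28a1 stood at 0.13, 0.496 and 0.338 RPM at E13.5, 3.91, 3.33 and 4.75 RPM at P0 and 7.74, 8.51 and 6.77 RPM at P20. Its stages did not overlap, and its changes were 3.83 (SE 0.89, adjusted p = 8.98e-04) and 0.95 (SE 0.89, adjusted p = 0.399). Col28a1 entered the fit through its P0 and P20 levels, so the first value is a description and not a test. The Schwann cell markers summed to 3.06 to 6.07 RPM in the E13.5 libraries, 5.98 to 11.5 RPM in those of P0 and 26.9 to 55.6 RPM in those of P20, and their part in the Col28a1 level was not tested.

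Chains that assemble into the same molecule can be set against each other within a library, which removes library scaling. These pairs were chosen after the values were seen, so the ratios of RPM are a description. The ratio of Col1a1 to Col1a2 was 0.323, 0.361 and 0.342 in wild type tongues at E13.5, 0.846, 0.789 and 0.7 at P0 and 1.12, 1.08 and 0.996 at P20. The biallelic ratios were 0.411, 0.378 and 0.213, 0.966, 0.677 and 0.824 and 1.23, 1.06 and 1.05. The 6 libraries of each stage did not overlap with those of another stage. The assembled type I molecule holds more of the Col1a1 chain than of the Col1a2 chain. The ratios cannot be set against that, since RPM is not corrected for exonic length, 6.56 kb for Col1a1 and 12.43 kb for Col1a2.

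The ratio of Col8a1 to Col8a2 was 0.365 to 0.835 in the 6 E13.5 libraries, 1.67 to 3.63 in those of P0 and 9.09 to 12 in those of P20, and the stages were apart. Col6a1 to Col6a2 went the other way, from 1.42 to 1.69 over 1.14 to 1.36 to 0.973 to 1.13, again without overlap. For Col4a1 to Col4a2 the ranges were 1.76 to 1.96, 1.5 to 1.82 and 1.37 to 1.63, which overlapped between neighbouring stages. Col5a1 to Col5a2 stood at 1.29 to 1.93, 1.37 to 1.93 and 1.71 to 2.02, and Col6a1 to Col6a3 at 0.477 to 0.778, 0.507 to 0.685 and 0.558 to 0.633, both with overlap at each step.

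**Figure D3:**
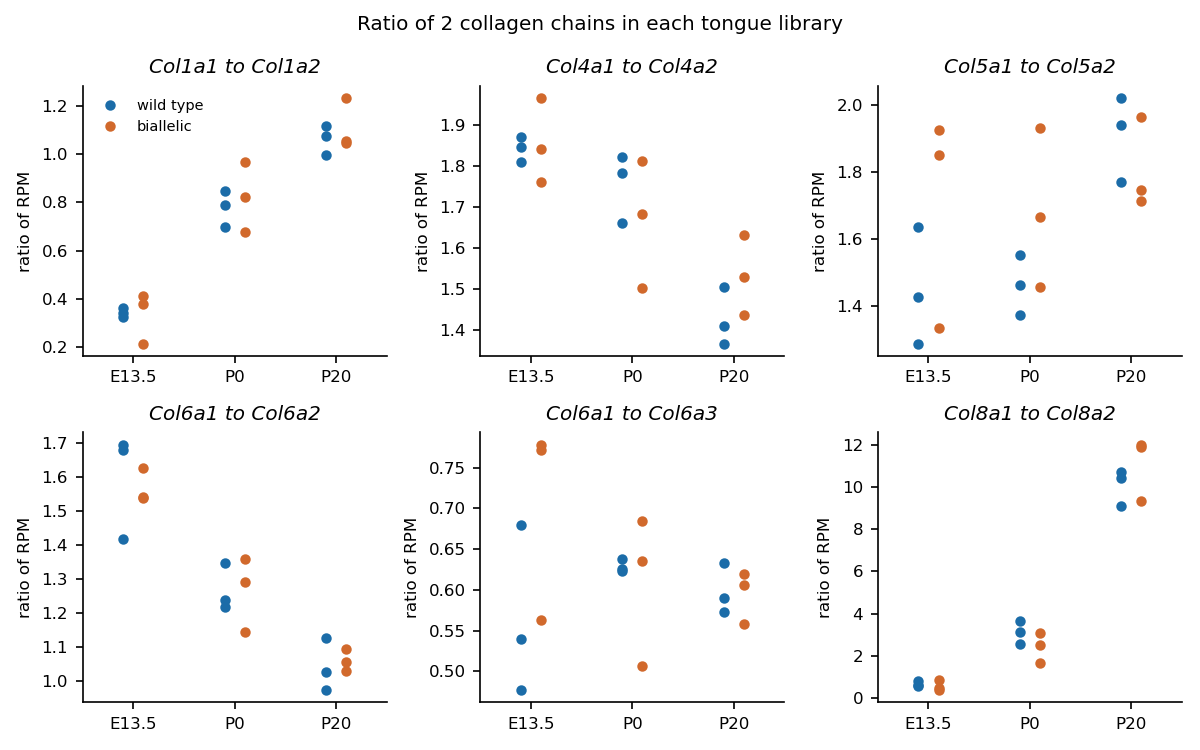
Ratio of the RPM of 2 collagen chains in each tongue library (vertical axes, linear, each with its own range that does not start at 0) at E13.5, P0 and P20; each point is 1 library, blue for wild type and orange for biallelic. The ratio of Col1a1 to Col1a2 is at most 0.411 at E13.5 and at least 0.996 at P20, that of Col8a1 to Col8a2 is at least 9.09 at P20, and genotypes overlap in both.

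The enzymes and partners that fold, process, assemble, degrade and bind collagen were read from 5 lists. For the biallelic counts of each list, 39.4% of all genes were higher and 38.3% lower at P0 than at E13.5. From P0 to P20 30.3% of all genes were higher and 17.3% lower in biallelic tongues. Of 19 folding and modification genes 6 were higher and 5 lower at P0 than at E13.5 in wild type tongues, with a median of -0.29, beside 37.4% of all genes higher, 40.8% lower and a median of -0.07. In biallelic tongues 7 were higher and 6 lower. Serpinh1, the collagen chaperone HSP47, was among those that fell, at -1.79 (adjusted p = 1.53e-05), from 316 to 346 RPM to 76.4 to 107 RPM. Ppib, the prolyl isomerase cyclophilin B, was at -1.92 (adjusted p = 4.34e-10), P4hb, a subunit of the prolyl 4-hydroxylases, at -1.1 (adjusted p = 1.42e-05), and Glt25d1, a collagen galactosyltransferase, at -0.6 (adjusted p = 3.79e-04). Those that rose were led by Leprel1, a prolyl 3-hydroxylase, at 2.85 (adjusted p = 2.16e-08), Tmem38b, an endoplasmic reticulum potassium channel, at 2.56 (adjusted p = 2.32e-07), Glt25d2 at 1.95 (adjusted p = 6.99e-05) and P4ha2 at 1.05 (adjusted p = 0.00969). From P0 to P20 9 of the 19 were lower and 1 was higher, beside 14.7% and 32.2% of all genes (11 and 1 in biallelic tongues). The values included Lepre1 at -1.74, Fkbp10 at -1.7, Leprel2 at -1.35 and Plod2, the telopeptide lysyl hydroxylase, at -1.27, and Glt25d2 at 1.22.

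Of 11 tested processing and crosslinking genes, out of 12 listed, 9 rose to P0 and none fell, with a median of 1.68, beside 37.4% and 40.8% of all genes. In biallelic tongues 9 rose and none fell as well. Lox, the lysyl oxidase that starts crosslinks, rose by 2.72 (adjusted p = 1.48e-06), with 3.34 to 10 RPM at E13.5 and 40.1 to 44.5 RPM at P0. It was at 5.28 to 6.52 RPM at P20, a change of -2.82 (adjusted p = 8.59e-06). Loxl1 rose by 2.23, Pcolce, an enhancer of propeptide cleavage, by 2.12 and Tll2, a propeptide protease of the Bmp1 family, by 2.04. By P20 4 of the 11 were lower than at P0 and none was higher, beside 14.7% and 32.2% of all genes (6 and none in biallelic tongues). Among them were the N-propeptidase Adamts3 at -1.23, Adamts14 at -0.88 and Loxl3 at -0.76.

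Fibril assembly partners were higher at P0 for 6 of 7 genes, with a median of 1.45, beside 37.4% of all genes. In biallelic tongues 5 of 7 were higher. They included Aebp1 at 2.53 and the leucine-rich proteoglycans Dcn (decorin) at 1.57 and Lum (lumican) at 1.45. Tnxb, tenascin X, had a fitted change of 9.78, from 0.0233 to 0.381 RPM at E13.5 to 110.4 to 144 RPM at P0, so the fitted value rests on very few reads at E13.5. From P0 to P20 Fmod (fibromodulin, 2.13) and Dcn (0.88) rose and Sparc (-0.45) fell, 2 and 1 of 7 beside 32.2% of all genes higher and 14.7% lower (1 and 1 in biallelic tongues).

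Of 8 tested breakdown and uptake genes, out of 11 listed, 5 rose to P0 and none fell in either genotype, beside 37.4% and 40.8% of all genes in wild type tongues. They were led by the membrane protease Fap at 3.29, the inhibitor Timp2 at 1.35, Reck at 1.05 and Timp3 at 0.9. At P20 3 were lower than at P0, Fap at -1.17, the collagenase Mmp14 at -0.98 and the cathepsin Ctsk at -0.87, and Timp3 was higher at 1.12, beside 14.7% of all genes lower and 32.2% higher (4 and 1 genes in biallelic tongues). Among 6 tested receptors, out of 8 listed, the integrin chains Itga1 (2.23), Itga2 (2.15), Itga11 (0.86) and Itgb1 (0.45) rose to P0 and the receptor kinase Ddr1 (-1.17) fell, 4 and 1 of 6 in both genotypes, beside 37.4% and 40.8% of all genes in wild type tongues. From P0 to P20 Ddr1 (0.94) and Itga11 (0.79) rose and Itgb1 (-0.53) fell, beside 32.2% and 14.7% of all genes (3 and 1 of 6 in biallelic tongues).

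Between the genotypes no collagen gene passed the threshold in any tongue table (limma and limma voom). At E13.5 0 of 28 tested collagen genes were called (limma; 0 also with limma voom), beside 0.0% of all genes. The median log2 difference, biallelic minus wild type, was 0.07 beside -0.06 for all genes, 16 of 28 were positive, and 1 had an unadjusted p under 0.05, beside 386 of 11869 genes. At P0 0 of 30 were called by either tool, beside 0.016% of all genes, the median was 0.08 beside 0.04, 21 were positive and 5 had an unadjusted p under 0.05, beside 412 of 12489. At P20 0 of 32 were called by either tool, beside 0.0% of all genes, with a median of -0.13 beside -0.02, 24 negative values and 2 unadjusted p under 0.05, beside 286 of 12693. The genotypes did not overlap for 1 collagen gene at E13.5, where 10.1% of all genes did not, for 7 at P0 beside 8.9%, and for 2 at P20 beside 6.89%.

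At E13.5 the gene without overlap was Col18a1, at 111, 83.5 and 97.3 RPM in wild type and 126, 137 and 156 RPM in biallelic tongues. All 3 biallelic libraries were higher, a difference of 0.52 (SE 0.15, unadjusted p = 0.00509, adjusted p = 0.992). At P0 and P20 the genotypes overlapped for Col18a1, and its differences were 0.08 and -0.02. The next in order of p at E13.5 were Col8a2 at 0.32 (SE 0.25, unadjusted p = 0.221, adjusted p = 0.992) and Col12a1 at 0.47 (SE 0.36, unadjusted p = 0.224, adjusted p = 0.992), and their groups overlapped.

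At P0 Col24a1 was at 49, 59.1 and 60.6 RPM in wild type and 76.7, 80.3 and 72 RPM in biallelic tongues. Its difference was 0.45 (SE 0.11, unadjusted p = 0.00403, adjusted p = 0.9998), and the groups did not overlap. Col6a6 was at 20.1, 21.2 and 19.4 and 14, 16.1 and 17.6 RPM, lower in all biallelic libraries, at -0.35 (SE 0.11, unadjusted p = 0.0163, adjusted p = 0.9998). Col25a1 was at 41.7, 45.8 and 55.4 and 53.8, 71 and 73.2 RPM, with overlap, at 0.47 (SE 0.16, unadjusted p = 0.0179, adjusted p = 0.9998). The other genes without overlap at P0 were Col5a1, Col5a2 and Col7a1, higher, and Col3a1 and Col15a1, lower, with differences between -0.13 and 0.31. Col7a1 and Col17a1 also had an unadjusted p under 0.05.

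At P20 Col14a1 was at 61.4, 70.5 and 67.4 RPM in wild type and 52.8, 46.7 and 56.2 RPM in biallelic tongues, lower in all 3, at -0.36 (SE 0.11, unadjusted p = 0.0121, adjusted p = 1). Col24a1, higher in biallelic tongues at P0, was lower in all 3 at P20, at 12.1, 14 and 9.19 against 7.94, 8.48 and 9.02 RPM, a difference of -0.45 (SE 0.16, unadjusted p = 0.0253, adjusted p = 1). Col1a2 was at 387, 460.0 and 283 against 245, 259.5 and 336 RPM, with overlap, at -0.41 (SE 0.21, unadjusted p = 0.0911, adjusted p = 1). None of these passed the test over all genes.

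P20 biallelic library 3 carried much of the spread at that stage. It held Col4a1 at 466 RPM beside 182 to 257 RPM in the other 5 libraries, Col4a2 at 286 RPM beside 133 to 174 RPM, and Col15a1 at 141 RPM beside 49.7 to 88.3 RPM. Its 5 endothelial markers summed to 288 RPM beside 147 to 179 RPM, and its 4 mural cell markers to 319 RPM beside 203 to 244 RPM. The part of these markers in the collagen levels was not tested. Without this library 0 collagen genes were called at P20.

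**Figure D4:**
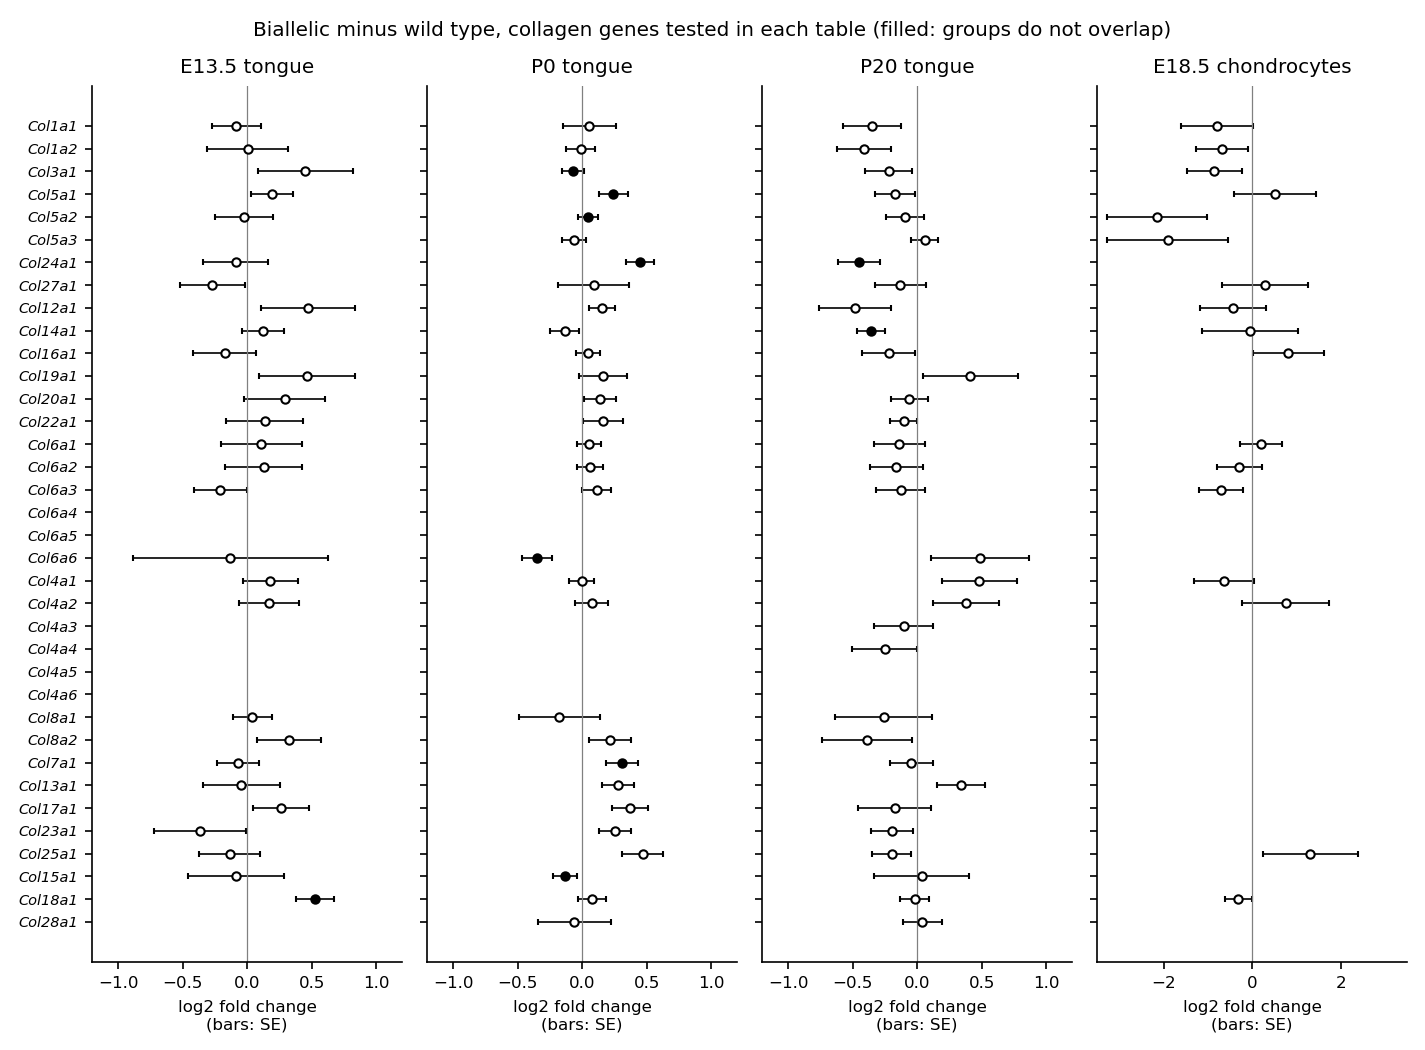
Log2 difference between biallelic and wild type samples for each tested collagen gene (horizontal axis) in the tongue at E13.5, P0 and P20 and in the E18.5 sorted costal cells; bars are standard errors, filled points are genes whose groups do not overlap, the vertical line marks no difference, and genes not tested in a table have no point. The panel of the costal cells has its own wider axis, and no gene in any panel passed an adjusted p of 0.05. The tongue values lie between -0.48 and 0.52, and those of the costal cells between -2.15 and 1.31 with wide bars.

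Averaged over the 3 stages, 0 of 31 collagen genes differed between genotypes (limma; 0 also with limma voom), beside 0.0234% of all genes, and 1 had an unadjusted p under 0.05. The smallest p-values belonged to Col18a1 at 0.19 (SE 0.07, unadjusted p = 0.0149, adjusted p = 1), Col14a1 at -0.12 (SE 0.07, unadjusted p = 0.104, adjusted p = 1) and Col19a1 at 0.35 (SE 0.2, unadjusted p = 0.105, adjusted p = 1). The genotype difference itself was compared between stages for the same 31 genes. Between P20 and P0 0 were called, beside 0.0% of all genes, with 2 unadjusted p under 0.05, between P0 and E13.5 0 beside 0.0%, with 1, and between P20 and E13.5 0 beside 0.0%, with 2. Limma voom called 0 in each. Col24a1 led by p between P0 and P20 at -0.9 (SE 0.26, unadjusted p = 0.00329, adjusted p = 1), and Col18a1 led between E13.5 and P0 at -0.45 (SE 0.18, unadjusted p = 0.0213, adjusted p = 0.852) and between E13.5 and P20 at -0.54 (SE 0.18, unadjusted p = 0.00667, adjusted p = 0.9995).

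The 2 sort markers were found in every animal of the costal cells, Cd24a at 28.7 to 55.6 RPM and Cd200 at 4.78 to 21.3 RPM. The other 3 of 5 markers of prehypertrophic and hypertrophic chondrocytes, Ihh, Pth1r and Col10a1, had means of at most 0.424 RPM in either genotype. The 12 general chondrocyte markers, 6 of them cartilage collagens, summed to 243 to 1046 RPM, with Col2a1 at 154 to 760 RPM. By contrast 8 leukocyte markers, all above 1 RPM on average, summed to 2165 to 3217 RPM, with Ptprc, Itgam, Lyz2 and Csf1r at 229 RPM or more in every animal. Of 6 osteoblast markers Runx2 was at 2.38 to 12.2 RPM, and the other 5 had means of at most 0.548 RPM, with Sp7 reaching 1.59 RPM in 1 biallelic animal. The 6 summed to 2.38 to 12.2 RPM. The cells are therefore called sorted costal cells here, and their polyadenylated RNA libraries are not compared with the tongue in tests.

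The collagens together took 0.0221 to 0.121% of reads in the wild type and 0.0145 to 0.16% in the biallelic costal cells. Per kilobase the wild type order was Col3a1 at 17.3 ± 14.6, Col1a1 at 16.5 ± 13.6 and Col6a1 at 9.24 ± 5.74 RPM per kb (SD, n = 5), which did not differ beyond their SD. Of the 36 genes 17 were tested. The other 19 included Col7a1, which had no read in any of the 11 animals, and Col4a3, Col13a1, Col17a1, Col22a1 and Col28a1, which were below 2 RPM in every animal. Col4a5 and Col4a6, listed in this table alone, were below the filter too.

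A few animals held most of the fibrillar collagen RNA. In the wild type animals 7 to 11 Col3a1 was at 203, 135, 399.9, 65.2 and 44.6 RPM, and in the biallelic animals its lowest, median and highest values were 32.3, 54.7 and 412 RPM. Col1a1 was at 99.4, 61.6, 264, 70 and 45.3 RPM and at 6.03, 45.9 and 494 RPM, and Col1a2 at 117, 70.3, 166, 45.3 and 34.7 RPM and at 20.2, 32.5 and 284 RPM. Biallelic animal 5 was the highest for all 3, followed by wild type animal 9, and the groups overlapped. Col6a1 was at 64.4, 11.6, 69.3, 29.4 and 27.6 RPM in the wild type and at 20.7, 34.4 and 117 RPM in the biallelic animals, again highest in biallelic animal 5. Col6a2 was at 53.6, 13.6, 40.4, 20.3 and 7.49 and at 10, 14.6 and 51.5 RPM, highest in wild type animal 7, and both overlapped between groups. The 6 fibroblast markers summed to 248 RPM in biallelic animal 5 and to 220, 62.2 and 647 RPM in wild type animals 7, 8 and 9, beside 42.6 to 52.4 RPM in the other 7 animals. The part of these markers in the collagen levels was not tested.

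**Figure D5:**
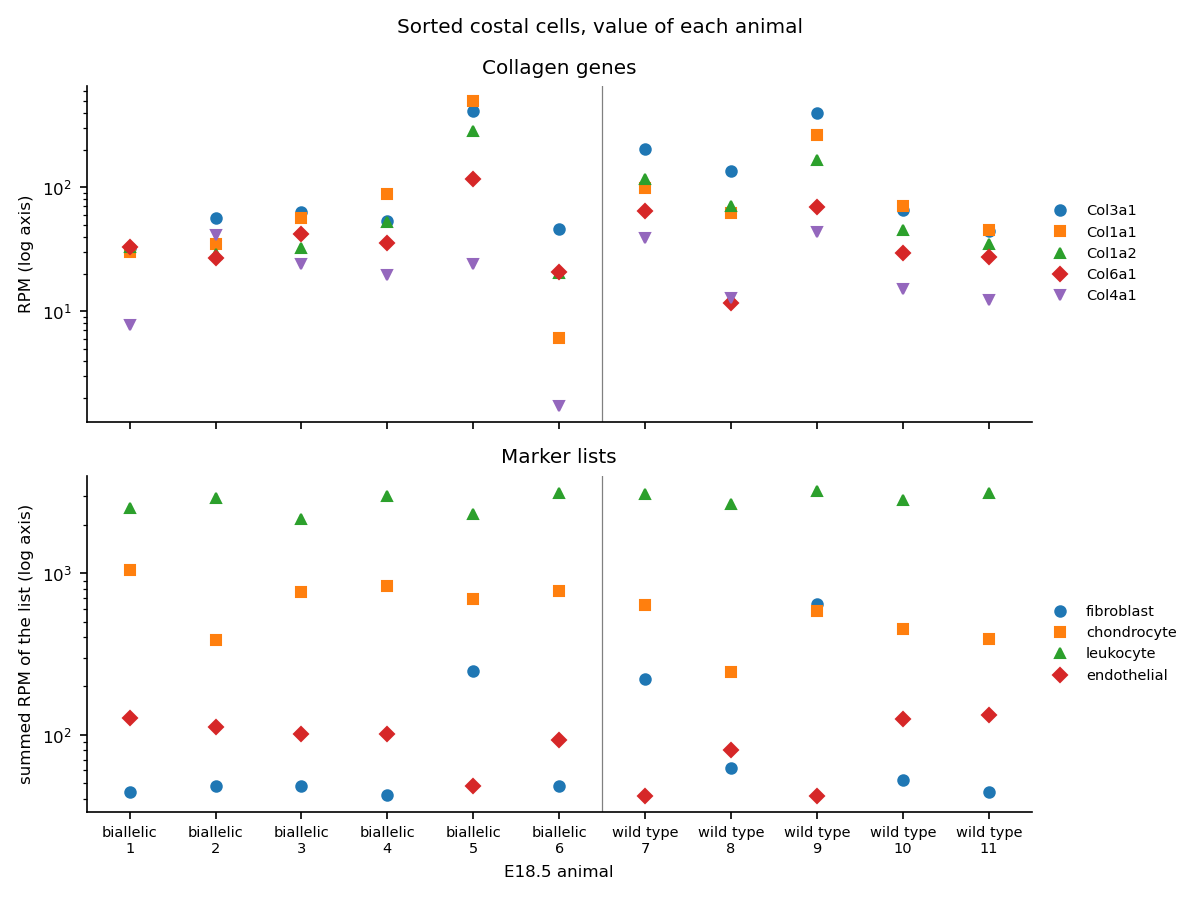
RPM in each of the 11 animals of the sorted costal cells (horizontal axis; biallelic animals 1 to 6 left of the vertical line, wild type animals 7 to 11 right of it) on logarithmic axes; the upper panel plots Col3a1, Col1a1, Col1a2, Col6a1 and Col4a1, and the lower panel the summed RPM of the fibroblast, chondrocyte, leukocyte and endothelial marker lists. Biallelic animal 5 reaches 412 RPM for Col3a1, above the other biallelic animals at 32.3 to 63.5 RPM, wild type animal 9 reaches 399.9 RPM, and the fibroblast sum is high in both animals.

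Between genotypes 0 of 17 tested collagen genes were called in the costal cells (limma; 0 also with limma voom), beside 0.0% of all genes, and 0 had an unadjusted p under 0.05 beside 1298 of 11127 genes. The median difference was -0.31 beside -0.11 for all genes, 11 of 17 were negative, and the groups did not overlap for 0 collagen genes beside 0.872% of all genes. Centring on the median gene moved the median of all genes from -0.11 to 0.12. Col5a2 was at 35.3, 24.5, 38.8, 7.86 and 6.13 RPM in the wild type animals and at a lowest, median and highest value of 0, 6.66 and 33.5 RPM in the biallelic animals, a difference of -2.15 (SE 1.13, unadjusted p = 0.0782, adjusted p = 0.455). Col6a3 was at 28.6, 20.4, 82.8, 20.2 and 17.4 and at 8.22, 15.8 and 60.2 RPM, at -0.7 (SE 0.49, unadjusted p = 0.173, adjusted p = 0.538), and Col5a3 at 16.1, 0, 12.3, 1.14 and 0.681 and at 0, 0.943 and 2.77 RPM, at -1.91 (SE 1.37, unadjusted p = 0.183, adjusted p = 0.55).

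All 3 overlapped between groups, with wild type animals 10 and 11 within the range of the biallelic animals. Without biallelic animal 5 and wild type animals 7, 8 and 9, 14 collagen genes were tested and 0 called, and the differences were -1.44 for Col5a2 and -0.49 for Col6a3. With wild type animals 7, 8 and 9 left out and animal 5 kept they were -0.82 and -0.13, with 0 of 15 called. The standard errors of 0.311 to 1.37 on the log2 scale over the 17 genes set how small a difference could be seen.

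No gene of the 5 collagen pathway lists passed the threshold between genotypes in any table (limma; 0 also with limma voom). Unadjusted p under 0.05 were held by 1 of 49 genes at E13.5, 2 of 50 at P0, 3 of 52 at P20 and 5 of 44 in the costal cells, beside 386 of 11869, 412 of 12489, 286 of 12693 and 1298 of 11127 among all genes. The smallest p of each table belonged to Lox at E13.5 (0.91, unadjusted p = 0.0411, adjusted p = 0.992), Lum at P0 (-0.53, unadjusted p = 0.0269, adjusted p = 0.9998), P4ha3, a prolyl 4-hydroxylase subunit, at P20 (-0.81, unadjusted p = 0.0027, adjusted p = 1) and the gelatinase Mmp9 in the costal cells (-1.86, unadjusted p = 4.22e-04, adjusted p = 0.423). Mmp9 is also a neutrophil gene. Of the 8 leukocyte markers, S100a8 and S100a9 had means of 402 and 265 RPM in wild type and 89.1 and 9.59 RPM in biallelic costal cells. Their wild type values ran from 107 to 714 and from 2.38 to 631 RPM. Itgam and Ptprc went the other way, with means of 435 and 352 RPM in wild type and 545 and 423 RPM in biallelic cells. The sum of the 8 overlapped between genotypes, at 2671 to 3217 and 2165 to 3142 RPM. The part of these markers in the Mmp9 difference was not tested.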

How the data were processed

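The authors deposited 4 tables of log2 RPM per gene, 1 for each tongue stage and 1 for the sorted costal cells. Tongue libraries were strand-specific (dUTP), made after ribosomal RNA removal from 300 ng RNA with 10 PCR cycles, and costal cells gave polyadenylated RNA for SMART-seq2, per the labels' protocols. Trim Galore 0.4.2, TopHat2 2.1.0 (tongue), HISAT2 (costal cells) and GRCm38 are named per the submitters' processing notes. Neither the counting tool nor its use of strand is given in the sources used here. Reads of overlapping genes could be misassigned. Genes with no read hold the value of 0.9 reads in the deposited tables and are printed as 0. Below 1000 reads, 100% of values lay within 0.05 of a whole number of reads in every library, which gave the read totals. For 4 biallelic animals 2 libraries are labelled and 1 column exists, so 33 samples correspond to 29 columns.

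From these values, fold changes were fitted on the log2 scale with limma 3.58.1 in R 4.3.3 (trend, Benjamini-Hochberg over all genes tested, threshold 0.05). Genotypes were compared within a table over genes that reached 1 RPM in 3 or more of 6 tongue libraries, or in 5 or more of 11 animals. Stages, the averaged genotype difference and its differences between stages came from 1 fit of the 18 tongue libraries, over genes with a mean of at least 1 RPM. No gene passed the filter through 1 genotype alone among the collagens. The fits were also run on simulated counts with 1 fixed dispersion per comparison and no library effects beyond depth. Those runs do not show how the fits behave where libraries stand apart, as some do here. Exonic lengths (the union of all annotated exons of a gene) and positions come from GENCODE M21 and promoters from RefSeq.

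The genes, lists and tests were chosen with earlier results of these data known. Values in every library (for the 6 biallelic costal animals the lowest, median and highest) are given for Plagl1, the 3 genes of smallest p in each genotype contrast, up to 8 rising and 8 falling genes of largest change at 10 RPM or more per stage contrast, and the 6 of highest wild type level per table. The remaining genes with such values, and the pairs of chains, were chosen after their values were seen. Alternatives were other filters, a pseudocount of 1, other scalings, limma voom on whole reads, limma without trend, a replicate block and each library left out.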

Additional observations from a re-analysis of the deposited data

Results flagged for a closer look

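In the biallelic costal cells Col3a1 was at 412 RPM in animal 5 and at 32.3 to 63.5 RPM in the other 5 animals. On the log2 scale the gap to the nearest animal was 0.735 of the whole range, above the critical value of 0.625 for 6 animals. For Col1a2 the same animal was at 284 RPM beside 20.2 to 52.6 RPM, and the gap was 0.639 of the range. Of 34 groups examined, the 17 tested collagen genes in 2 genotypes, these 2 exceeded the critical value. That count is near the rate of about 1 in 20 that chance alone gives for independent groups. Both come from animal 5, so the groups are not independent. The fibroblast markers summed to 248 RPM in this animal, and their part was not tested.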

How the results depend on the processing

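In the tongue and in the costal cells the count of collagen genes called between genotypes was 0 under each alternative run, as it was for the averaged difference and its differences between stages. In the costal cells the smallest adjusted p of a collagen gene ran from 0.0502 to 0.948 over the main fit and other settings (limma or limma voom). At the lower end a call was missed narrowly. With a replicate block 28 and 21 collagen genes were called in wild type tongues (E13.5 to P0, then P0 to P20) and 29 and 21 in biallelic tongues. No collagen gene was called between genotypes with it. Over all genes at P0 the main fit called 2 between genotypes, and the replicate block and limma voom called 0. Median centring and quantile normalization called 1, which was lower in biallelic tongues. The P0 call of Plagl1 was thus lost in each of these settings. Same-numbered tongues deviated together with correlations of 0.159, 0.042 and 0.137 at E13.5, where each biallelic library was closest to its own number. The correlations were -0.343, -0.486 and 0.362 at P0 and -0.314, -0.288 and -0.647 at P20. The numbers were not read as pairs in the main fits, and pairing at E13.5 was covered by the replicate block alone. Leaving out each library in turn gave 26 to 28 and 20 to 23 called genes in wild type and 28 to 30 and 19 to 24 in biallelic tongues. Over the main fit and other settings the counts were 25 to 29 and 20 to 26 in wild type and 27 to 30 and 20 to 26 in biallelic tongues. The 2 collagen genes called lower at P0 in wild type tongues became 1 under median centring and under scaling to listed-gene reads, and 1 to 2 with each library left out (1 without E13.5 wild type library 3 or P0 wild type library 2). In biallelic tongues they became 1 to 2 (1 without E13.5 biallelic library 3). The gene lost was Col8a2. Under quantile normalization the wild type count stayed at 2, with Col8a2 lost and Col4a3 called lower, at -2.40 beside 0.62 without it, and in biallelic tongues Col4a3 joined Col18a1 and Col8a2; the cause was not tested. The 2 called higher at P20 in wild type tongues became 1 when genes had to pass the filter in every tongue table, since Col4a3 was then not tested. The 1 called higher at P20 in biallelic tongues became 0 under that filter, and 2 with log2(RPM + 1), without a filter, with limma voom, and without E13.5 biallelic library 1 or P20 biallelic library 3 (1 to 2 over the libraries left out); the cause was not tested. Genes of smallest p or largest change in each contrast were followed one by one. Of their results, 520 of 523 under other settings and 965 of 969 with a library left out kept their direction and side of the threshold. Only Col8a2 and Col6a6 among them, as given in the report, did not, and no direction among them reversed. Results outside this set also crossed the threshold. From P0 to P20 the genes called lower numbered 19 to 24 in wild type and 19 to 25 in biallelic tongues over the main fit and other settings. Genes near 0.9 reads cannot show small changes, and 3 libraries per group limit the tongue.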
